A study of Mus musculus with 3 samples.

Results

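The genes described here are *Cyp17a1*, *Insl3*, *Cyb5a*, *Por*, *Mgarp* and *Srd5a1*, which serve androgen synthesis and hormone output of theca cells in the mouse ovary. They were chosen by name, and all 6 of them have a row among the 24958 genes of the deposited table. The data are 10x Genomics single-cell RNA sequencing (scRNA-seq) libraries of whole mouse ovary, with 1 library each for ovaries taken 0, 1 and 6 h after hCG, an LH-like hormone that triggers ovulation (labelled hCG0h, hCG1h and hCG6h). The methods of the study describe juvenile Kunming mice primed with pregnant mare serum gonadotropin (PMSG), a description that matches the 0 h library, and whether the mice of the 1 and 6 h libraries received PMSG was not given in the sources used here. The table holds 31776 cells whose barcodes end in 1, 2 or 3, here called sets 1, 2 and 3, with 10384, 9917 and 11475 cells. The labels name the libraries SAMPLES1, SAMPLES2 and SAMPLES3, but no source states that the barcode endings follow these names, so no set is given a time point. With 1 library for each time point there are no replicates. Every difference between sets is a difference between libraries without a test, and every interval is a 95% interval that covers counting error only.

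In the ovary, theca cells surround the follicle and make androgens under the control of luteinizing hormone, and granulosa cells turn these androgens into estrogens. *Cyp17a1* encodes the cytochrome P450 with 17-hydroxylase and 17,20-lyase activity that turns progestins into androgens. *Por* encodes the reductase that passes electrons to it, and *Cyb5a* encodes cytochrome b5, which favours its lyase step. *Insl3* encodes insulin-like peptide 3, a peptide hormone secreted by theca cells. *Mgarp* encodes a mitochondrial protein of steroid-making cells, and *Srd5a1* encodes a 5-alpha-reductase that acts on testosterone and progesterone.

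In the GENCODE annotation of GRCm38, *Cyp17a1* lies at chr19:46667165-46673172 on the minus strand and overlaps no other annotated gene. *Mgarp* lies at chr3:51388412-51396738 on the minus strand, also without an overlapping gene. *Insl3* lies at chr8:71689214-71690575 on the plus strand, and the annotation of *Jak3*, which encodes a kinase of cytokine signalling, runs over its whole length on the same strand, so that reads of both genes could be mixed. *Por* lies at chr5:135670033-135735326 on the plus strand, and a non-coding gene and a pseudogene overlap it on the other strand. *Srd5a1* lies at chr13:69573449-69611442 on the minus strand, and the annotation of *Nsun2* covers it on the other strand. The short model *Gm17108* overlaps 945 bases of *Srd5a1* on the same strand, so that reads there could also be shared.

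The RefSeq table of promoters matched 4 of the 6 genes (*Insl3*, *Por*, *Mgarp* and *Srd5a1*), and the 250 bases before each RefSeq start, which differs from the GENCODE gene start given above and for *Por* lies well inside that gene, were searched on both strands for AAGGTCA, the half-site of the steroidogenic factor NR5A1, for its core AAGGTC, for the GATA motif GATAAG and for the cAMP response element TGACGTCA. The core was added after the full half-site had given no match. The *Insl3* window, the only one of the 4 with a match to any of these letters, is shown because *Insl3* had the largest share of its UMIs in theca-like cells among the 6 genes in each set (chr8:71689002-71689251, plus strand, GRCm38.p6, capitals mark the core).
Insl3: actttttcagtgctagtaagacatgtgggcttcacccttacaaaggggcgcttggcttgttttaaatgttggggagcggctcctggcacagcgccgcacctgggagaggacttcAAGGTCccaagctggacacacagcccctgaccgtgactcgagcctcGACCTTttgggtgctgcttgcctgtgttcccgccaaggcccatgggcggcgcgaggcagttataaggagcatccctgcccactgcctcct
The core stands 136 bases before the start on the plus strand and 90 bases before it on the minus strand. Among all 32851 promoter windows of this length, 10.58% hold AAGGTC, 4.079% hold AAGGTCA, 6.548% hold GATAAG and 1.546% hold TGACGTCA. These matches are letters in a window and no evidence of binding.

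Cells were placed in classes by marker genes that include none of the 6 genes. The class called theca-like held 1278 cells in set 1 (12.3% of the set), 490 cells in set 2 (4.94%) and 926 cells in set 3 (8.07%). Its 8 markers of theca and steroid-making interstitial cells summed to 219.2, 206.9 and 124.3 UMIs (unique molecular identifiers, counts of captured transcripts) per 10000 in sets 1, 2 and 3. The same 8 markers summed to 226.0, 252.0 and 114.4 in luteal-like cells and to 77.6, 93.1 and 52.0 in granulosa-like cells, so that this list marks steroid-making cells and does not by itself set the theca-like class apart. In set 3 the 4 luteal markers were higher in these cells, with a sum of 16.2 against 9.12 and 9.24, as were the smooth muscle markers, at 4.47 against 1.38 and 2.30. The part of these differences in the results of set 3 was not tested. The 8 stroma markers, which include both collagen genes of the gate, summed to 23.0, 22.9 and 17.5. The 10 granulosa markers summed to 11.6, 13.4 and 13.4 UMIs per 10000 in the same cells, most of it *Inha* (8.91, 9.84 and 11.1), and the 8 endothelial and the 8 myeloid markers each stayed below 1. *Fshr*, the FSH receptor of granulosa cells, was near 0 in the theca-like cells (0.0319, 0.0466 and 0.0392). The gate required collagen UMIs and few granulosa UMIs, and 634, 555 and 729 cells of sets 1, 2 and 3 were kept out for lack of collagen UMIs alone. Cells that met these limits and the theca score were not weighed against their granulosa or luteal score. The class called luteal-like (242, 189 and 257 cells) rests on 4 markers and was of mixed make-up, with granulosa genes in sets 2 and 3. The level of a gene below is its mean over the cells of a class, in UMIs per 10000, and levels are compared within a gene only.

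In set 1, 4 of the 6 genes had their highest class level in theca-like cells, as did 4 in set 2 and 3 in set 3. Of all genes with a UMI in these classes, 10.9%, 8.31% and 9.07% were highest there. *Cyp17a1*, *Insl3* and *Srd5a1* were highest in theca-like cells of every set, *Cyb5a* was highest in granulosa-like cells of every set, and *Mgarp* was highest in luteal-like cells of every set. *Por* was highest in theca-like cells of sets 1 and 2, and in set 3 its level in the 129 myeloid-like cells was slightly above that in theca-like cells, with overlapping intervals. Under other settings the count of genes highest in theca-like cells was 5 in set 1 without cells past 2 gates, and 4 in set 3 under 4 alternatives. Against all other cells of the set, 4 of 5 genes above the minimum level of 0.5 UMIs per 10000 were at least 2-fold higher in theca-like cells of set 1 (6.1% of the 3724 genes compared), 3 of 4 in set 2 (6.58% of 3312 genes) and 3 of 4 in set 3 (3.51% of 3449 genes). *Insl3* and *Por* in set 1 and *Cyp17a1* in set 3 reached the minimum in theca-like cells alone and so could only come out higher there. *Cyb5a* was at least 2-fold lower in theca-like cells of sets 1 and 2, as were 9.32% and 11% of genes. In set 3, where 4.23% of genes were lower, none of the 4 was.

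**Figure D1:**
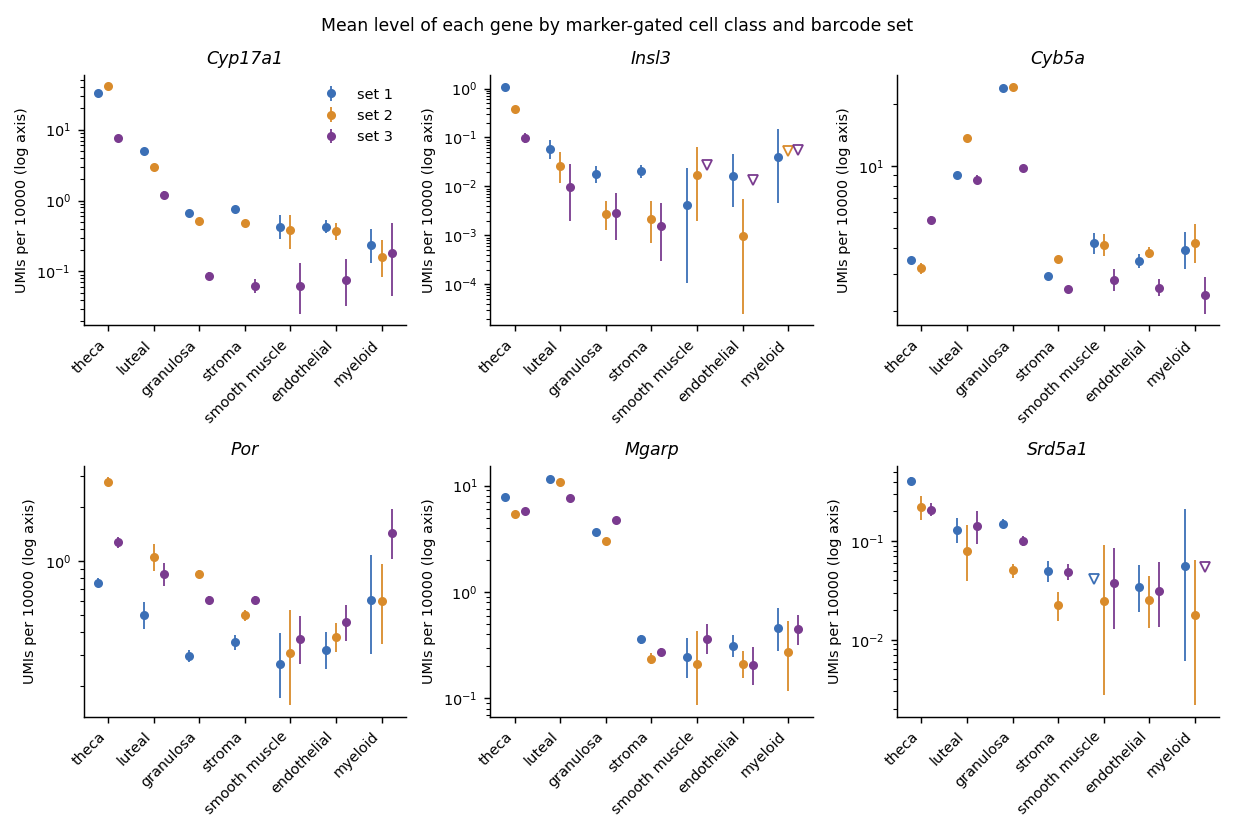
Mean level (UMIs per 10000, log axis) of each of the 6 genes in 7 marker-gated cell classes, with sets 1, 2 and 3 in blue, orange and purple. Points are means over cells, bars are 95% counting intervals, and open triangles mark the upper bound where no UMI was found. *Cyp17a1* and *Insl3* stand highest in theca-like cells of all 3 sets, *Cyb5a* in granulosa-like cells and *Mgarp* in luteal-like cells.

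*Cyp17a1* was held mainly by theca-like cells, and its level in theca-like cells was far lower in set 3 than in the others. Set 1 held 32.6 UMIs per 10000 (interval 32.4 to 32.9), set 2 held 40.8 (40.3 to 41.3) and set 3 held 7.73 (7.55 to 7.91). These levels were 24.8, 51.0 and 33.7 times those over all other cells of the same sets. Theca-like cells held most *Cyp17a1* UMIs of each set, with 80.1%, 79.2% and 77.7%, although they were a small share of the cells. The next named class was luteal-like, with levels of 5.03, 2.99 and 1.21, and 9.49%, 8.44% and 14.2% of the *Cyp17a1* UMIs were in cells that no gate claimed. The median luteal-like cell held 0 in each set, and the 90th percentile stood at 1.14, 1.86 and 0. The luteal-like means thus rest on few cells.

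The ratio of set 3 to set 2 in theca-like cells was 0.190 (0.184 to 0.195) and that of set 3 to set 1 was 0.237 (0.231 to 0.243). All other gates, scales and clusterings tried kept set 3 below set 2, with ratios from 0.172 to 0.307. The highest of these came from leaving out cells that passed 2 gates, which leaves 522, 203 and 440 cells. For theca-like cells the granulosa and luteal gates did not count in this. The ratio of set 2 to set 1 was 1.25 (1.23 to 1.27), and here the order was less firm, since it became 0.937 when no collagen UMIs were required of a theca-like cell. Over all cells of a set, without any gate, *Cyp17a1* stood at 5.17, 2.78 and 0.835, so that set 2 was at 0.537 of set 1. Fewer theca cells and less RNA per cell cannot be told apart in that last value, and set 2 also had the smallest share of theca-like cells.

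Single cells differed widely within the class. The median theca-like cell held 9.26 *Cyp17a1* UMIs per 10000 in set 1 and 24.9 in set 2, and in set 3 it held 0. The 90th percentile of the class stood at 101.0, 111.4 and 27.1, and the highest cell at 275.6, 228.9 and 126.0. The lower level of set 3 was thus present at the top of the class as well as in its middle. In set 3, 55.4% of theca-like cells were below 1 UMI per 10000, against 23.5% and 28.4% in sets 1 and 2, and 3.56% were at 50 or more, against 24.1% and 31.6%. Depth was lower in that set too, with medians of 11022, 10311 and 8299 UMIs per theca-like cell. When cells were reduced at random to 3000 UMIs (thinned) and the 20, 24 and 74 shallower theca-like cells left out, 69.2%, 72.7% and 41.0% of the other 1258, 466 and 852 had a *Cyp17a1* UMI.

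**Figure D2:**
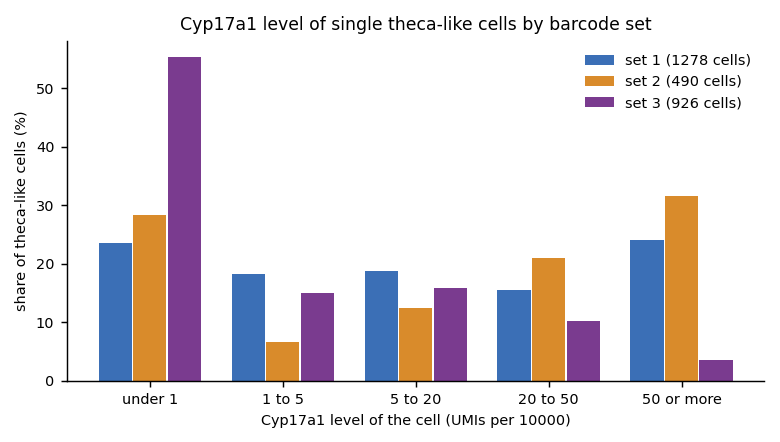
Share of theca-like cells (%) by the *Cyp17a1* level of the cell (UMIs per 10000) in sets 1, 2 and 3. In set 3, 55.4% of the cells stand below 1 and 3.56% at 50 or more, whereas sets 1 and 2 hold 24.1% and 31.6% of their cells at 50 or more.

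A weak *Cyp17a1* signal was found in every class. In endothelial-like cells, which are not known to make androgens, 7.75%, 7.76% and 0.587% of the thinned cells had a UMI, at median depths of 5245, 5223 and 4850 UMIs before thinning. In granulosa-like cells the thinned shares were 11.5%, 9.03% and 2.14%. In stroma-like cells they were 11.2%, 7.23% and 1.57%. The binomial intervals of both classes overlap that of endothelial-like cells in each set. The levels were less alike, since in set 1 those of stroma-like cells (0.755, 0.715 to 0.797) and granulosa-like cells (0.660, 0.624 to 0.698) were above that of endothelial-like cells (0.430, 0.347 to 0.526), as was that of granulosa-like cells in set 2 (0.521 against 0.372). Whether these UMIs were free RNA was not tested, and no expression of *Cyp17a1* by these classes is read from them.

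*Insl3*, the theca peptide hormone, was also held by theca-like cells. Unlike *Cyp17a1* under the main gate, it was lower in set 2 than in set 1, although *Cyp17a1* was lower too without the collagen minimum (0.937). Its theca-like level was 1.08 (1.02 to 1.13), 0.380 (0.330 to 0.437) and 0.0995 (0.0788 to 0.124) in sets 1, 2 and 3, from 1716, 244 and 99 UMIs. Each set was below the one before, and the intervals do not overlap. The ratio of set 2 to set 1 was 0.354 (0.304 to 0.410), and that of set 3 to set 2 was 0.261 (0.199 to 0.340). Both stayed below 0.5 in the alternatives that gave a ratio, from 0.266 to 0.406 and from 0.250 to 0.345. Over all cells, the levels of *Insl3* were 0.156, 0.0229 and 0.0118, and *Cyp17a1* over all cells had the same order of sets.

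Theca-like cells held 86.8%, 84.4% and 81.8% of all *Insl3* UMIs, and their level was 39.8, 89.1 and 24.1 times that over all other cells. With thinning, 23.6%, 9.01% and 3.17% of theca-like cells had an *Insl3* UMI, against 0.435%, 0.0751% and 0.0254% of granulosa-like cells. Endothelial-like cells had 4, 1 and 0 *Insl3* UMIs in all. For each 100 UMIs of *Cyp17a1*, theca-like cells held 3.0 (2.86 to 3.15), 0.94 (0.825 to 1.07) and 1.20 (0.974 to 1.46) UMIs of *Insl3*. In granulosa-like cells the same quantity was 2.45 (1.90 to 3.11), 0.644 (0.321 to 1.16) and 1.78 (0.647 to 3.90). In stroma-like cells it was 2.49 (1.91 to 3.21), 0.723 (0.330 to 1.38) and 2.60 (0.699 to 6.79). The intervals of these classes overlap that of theca-like cells of the same set. Luteal-like cells of set 1, at 1.24 (0.783 to 1.86), and the cells of set 1 in no class, at 1.46 (1.19 to 1.78), lay below it, as did the cells of set 2 in no class, at 0.469 (0.250 to 0.804).

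*Por*, the electron donor of CYP17A1, had its highest theca-like level in set 2. The levels were 0.758 (0.712 to 0.805), 2.78 (2.63 to 2.94) and 1.27 (1.19 to 1.36) in sets 1, 2 and 3. Set 2 stood at 3.67 (3.38 to 3.99) times set 1, and set 3 at 0.457 (0.419 to 0.50) of set 2. Set 2 was highest under all alternatives that gave these ratios, although the second ratio passed 0.5 under 4 of them and reached 0.629 without cells past 2 gates. Granulosa-like cells had the same order at lower levels, with 0.296, 0.849 and 0.604, and the ratio of set 2 to set 1 there was 2.87 (2.62 to 3.15). In stroma-like cells the order differed, with 0.351, 0.496 and 0.607. *Por* is used by many microsomal P450s and was found in all classes, and theca-like cells held 35.9%, 24.9% and 19.9% of its UMIs.

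*Cyb5a*, the second redox partner, was a granulosa gene in these data. Its level was 23.8 (23.6 to 24.0), 24.2 (24.0 to 24.4) and 9.73 (9.61 to 9.86) in granulosa-like cells, against 3.51 (3.4 to 3.61), 3.20 (3.01 to 3.4) and 5.51 (5.31 to 5.71) in theca-like cells. Granulosa-like cells held 77.0%, 80.1% and 61.2% of its UMIs. In sets 1 and 2 the theca-like level was close to that of stroma-like cells (2.95 and 3.54), endothelial-like cells (3.48 and 3.81) and myeloid-like cells (3.93 and 4.23). In set 3 the theca-like level was above all of these, which were 2.55, 2.58 and 2.38. Theca-like cells were thus the only one of the 7 named classes with a higher *Cyb5a* level in set 3 than in set 2, at a ratio of 1.72 (1.60 to 1.85) that ran from 1.28 to 1.94 over the alternatives. The ratio in granulosa-like cells was 0.402 (0.396 to 0.408). Luteal-like cells held 9.06, 13.6 and 8.57. In theca-like cells the granulosa markers summed to 13.4 in both of these sets and the luteal markers to 9.24 and 16.2, while the granulosa markers in granulosa-like cells summed to 156.2 and 62.1. Their part in the *Cyb5a* ratio was not tested.

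*Mgarp* marked all 3 steroid-making classes. In luteal-like cells its level was 11.6 (11.2 to 12.0), 10.9 (10.4 to 11.3) and 7.65 (7.24 to 8.07). In theca-like cells it was 7.74 (7.59 to 7.90), 5.37 (5.17 to 5.58) and 5.75 (5.56 to 5.94), and in granulosa-like cells it was 3.63, 3.05 and 4.71. Stroma-like, endothelial-like, smooth muscle-like and myeloid-like cells all stayed between 0.207 and 0.458. In theca-like cells set 2 was at 0.693 (0.664 to 0.724) of set 1. Sets 2 and 3 were nearly level, at a ratio of 1.07 (1.02 to 1.13) that ran from 0.844 to 1.13 over the alternatives, so the order of these 2 sets was not settled. *Mgarp* thus differed far less between sets 2 and 3 than *Cyp17a1* did in these cells.

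*Srd5a1* was a sparse transcript, highest in theca-like cells of each set, although in set 3 it was not above luteal-like cells beyond counting error, at a ratio of 1.47 (0.992 to 2.26). There its level was 0.406 (0.372 to 0.442), 0.220 (0.165 to 0.288) and 0.207 (0.178 to 0.240) in sets 1, 2 and 3, from 618, 117 and 211 UMIs. Set 1 was above both of the others, with a ratio of set 2 to set 1 of 0.543 (0.401 to 0.721), and sets 2 and 3 did not differ beyond counting error, at 0.942 (0.689 to 1.31). Granulosa-like cells held 0.15, 0.0503 and 0.10, and stroma-like cells 0.050, 0.0222 and 0.0488. Both of these classes were lowest in set 2. The levels were 3.52, 5.10 and 2.63 times those over all other cells.

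**Figure D3:**
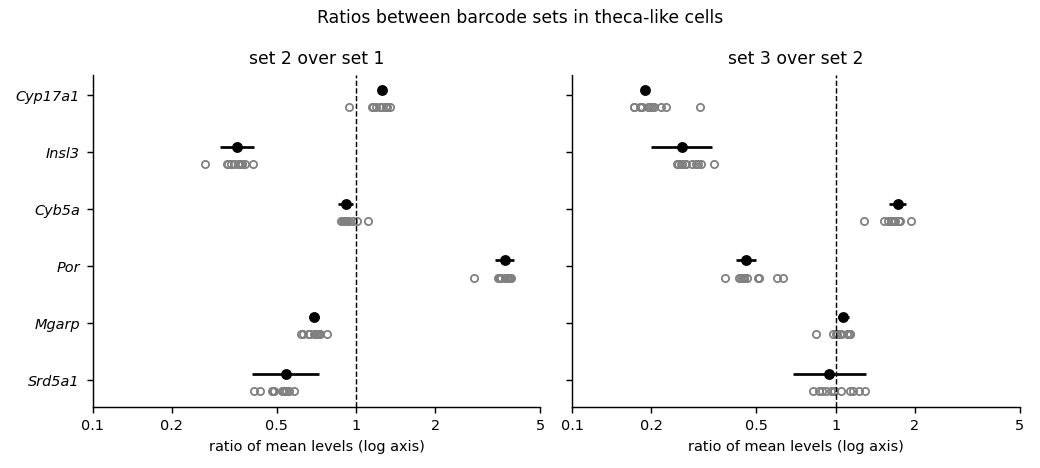
Ratio of mean levels between barcode sets in theca-like cells (log axis, dashed line at 1) for the 6 genes. Black points are the values given in the text with 95% counting intervals, and open grey points are the values under other gates, scales and clusterings. *Cyp17a1* and *Insl3* reach at most 0.307 and 0.345 in set 3 over set 2, and *Por* is at least 2.80 in set 2 over set 1.

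Across sets, the genes of the list did not move together. Of the 5 genes above the minimum level in sets 1 and 2, *Por* was at least 2-fold higher in set 2, as were 8.26% of the 3340 genes compared, and *Insl3* at least 2-fold lower, as were 9.28%. Between sets 2 and 3, *Cyp17a1* and *Por* of the 4 genes compared were at least 2-fold lower in set 3, as were 8.54% of 3324 genes, and none was higher, as against 16.3% of genes. *Insl3* and *Srd5a1* were below the minimum level in both of these sets and are not in that count. Between sets 1 and 3, *Cyp17a1* and *Insl3* of 5 genes were at least 2-fold lower in set 3 (10% of 3530 genes), and none was higher (9.75%). *Insl3* reached the minimum in set 1 alone, so that in both comparisons with set 1 it could only come out lower. The median over all genes was itself off 0, at -0.27 on the log2 scale from set 1 to set 2 and 0.25 from set 2 to set 3. Beside these, *Cyp17a1* was at 0.32 and -2.40, *Insl3* at -1.50 and -1.94 and *Por* at 1.88 and -1.13.

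Theca-like cells were then grouped by their own *Cyp17a1* level to see which of the other genes went with it from cell to cell. *Insl3* was higher in the cells with more *Cyp17a1*. In set 1 its level went from 0.411 in cells below 1 UMI of *Cyp17a1* per 10000 to 1.73 in cells at 50 or more, and in set 2 it went from 0.0396 to 0.808. In set 3 it was 0.0336 in the lowest group and between 0.137 and 0.221 in the other 4. Cells of like *Cyp17a1* level still differed in *Insl3* between sets, since those at 50 or more held 1.73, 0.808 and 0.181 (308, 155 and 33 cells).

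*Por* was higher in the cells with more *Cyp17a1* in all 3 sets, from 0.450 to 1.29, from 1.48 to 3.71 and from 0.886 to 2.64. The 4 pathway genes read in these groups were also higher in the highest than in the lowest group of all 3 sets. Of these, *Cyp11a1* and *Hsd3b1* are theca markers of the gate, so the cells were chosen partly on them. *Cyp11a1*, whose product makes pregnenolone from cholesterol, went from 23.1 to 83.6, from 13.9 to 77.8 and from 24.1 to 112.0. *Lhcgr*, the LH receptor, went from 4.67 to 11.8, from 2.18 to 8.19 and from 0.318 to 3.15. *Hsd3b1* went from 24.98 to 41.2, from 7.84 to 32.1 and from 6.81 to 19.0, and *Star* from 0.590 to 1.38, from 7.94 to 32.4 and from 11.2 to 40.1, with its lowest value in set 1 (0.317) in the second group. *Cyb5a* lay between 3.27 and 3.81 in set 1, between 2.62 and 3.80 in set 2, where the lowest group was highest, and between 4.99 and 6.49 in set 3. *Mgarp* in set 1 was highest in the middle group (9.46) and lower at both ends (6.59 and 7.26), in set 2 it was 2.82 and 6.16 at the ends with 7.64 in the middle group, and in set 3 it went from 3.72 to 9.88. *Srd5a1* in set 1 was higher in the second and the third group (0.510 and 0.482) than at the ends (0.350 and 0.335). In set 2 it had no steady order, at 0.191, 0.120, 0.291, 0.202 and 0.251, and in set 3 it went from 0.112 to 0.389. The groups also differed in depth, with medians from 8469 to 12993 UMIs per cell in set 1, from 6618 to 12973 in set 2 and from 5854 to 11903 in set 3. Markers of other classes differed too between the lowest and the highest group. The granulosa marker *Inha* went from 5.55 to 12.7, from 6.29 to 13.8 and from 10.2 to 19.4, the luteal marker *Sfrp4* from 1.90 to 3.43, from 2.70 to 7.33 and from 6.66 to 13.5, and the stroma marker *Dcn* from 2.39 to 1.83, from 3.6 to 1.36 and from 1.78 to 0.712. Among the other theca markers of the gate, *Aldh1a1* went from 18.9 to 26.3, from 7.64 to 16.8 and from 6.85 to 12.6. *Enpep*, another of them, went from 1.72 to 2.14 and from 1.76 to 2.06 in sets 1 and 2 and fell from 0.691 to 0.234 in set 3. The part of depth and of these markers in the orders above was not tested.

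**Figure D4:**
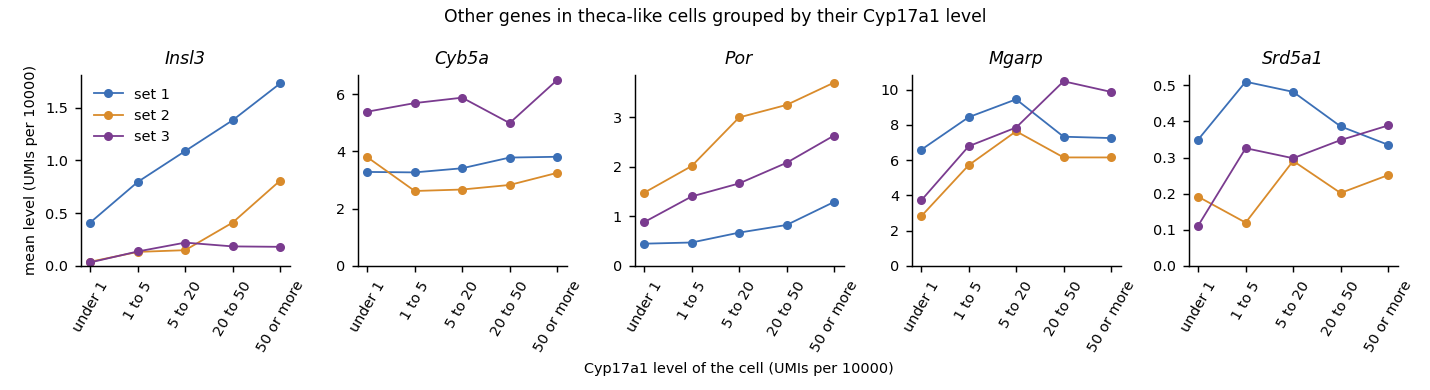
Mean level (UMIs per 10000, axes from 0) of the other 5 genes in theca-like cells grouped by the *Cyp17a1* level of the cell, for sets 1, 2 and 3. *Insl3* in set 1 goes from 0.411 to 1.73 and *Por* in set 2 from 1.48 to 3.71 with more *Cyp17a1*, while *Cyb5a* in set 1 stays between 3.27 and 3.81.

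At a common depth of 3000 UMIs, the pairs of genes found in the same theca-like cells were counted. Of the cells of set 1 with an *Insl3* UMI, 249 of 297 (83.8%) also had one of *Cyp17a1*, and in sets 2 and 3 this held for 41 of 42 and 19 of 27 cells. Seen from *Cyp17a1*, 28.6%, 12.1% and 5.44% of its cells had *Insl3*. For *Por*, 82.1%, 82.7% and 54.1% of its cells had *Cyp17a1*, against 69.2%, 72.7% and 41.0% of all theca-like cells. For *Srd5a1*, the shares were 68.3%, 89.3% and 53.6%, from 139, 28 and 56 cells with a UMI.

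The genes around CYP17A1 in the pathway were read from a list of 33 genes. Of these, 9, 8 and 6 were at least 2-fold higher in theca-like cells than in all other cells of sets 1, 2 and 3, and 6, 6 and 3 were lower, among 25, 25 and 20 genes above the minimum level. Over all genes, 6.1%, 6.58% and 3.51% were higher and 9.32%, 11% and 4.23% lower. Several of the list (*Cyp11a1*, *Hsd3b1*, *Fdx1*, *Fdxr* and *Scarb1*, and as markers of other classes *Hsd17b1*, *Nr5a2*, *Prlr* and *Akr1c18*) helped to place the cells, so their level against other classes is no finding. Part of these counts was thus set by the gate. Some genes called higher reached the minimum in theca-like cells alone and could only come out higher. These were *Star* and *Nr5a1* in set 1, *Fdxr* and *Nr5a1* in set 2 and *Lhcgr* in set 3. Some called lower reached it in the other cells alone and could only come out lower. These were *Hsd17b1* and *Gata6* in every set, *Nr5a2* in sets 1 and 3, *Cyp19a1* and *Insr* in sets 1 and 2 and *Akr1c14* in set 2. From set 1 to set 2, 6 of 21 genes compared were at least 2-fold higher and 3 lower (8.26% and 9.28% of all genes), with a median of -0.27 on the log2 scale, equal to that of all genes. From set 2 to set 3, 2 of 20 were higher and 7 lower (16.3% and 8.54% of all genes), with a median of -0.23 against 0.25 for all genes.

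Among genes of cholesterol supply and side chain cleavage, 3 of 6 were at least 2-fold higher in set 2 than in set 1 and none was lower, beside 8.26% and 9.28% of all genes. From set 2 to set 3, 1 was higher and 2 lower, beside 16.3% and 8.54%. *Star*, which carries cholesterol into mitochondria and was not used for the gate, had theca-like levels of 0.720, 22.4 and 19.8, so that set 2 was at 31.2 (29.3 to 33.2) times set 1. *Scarb1*, the lipoprotein receptor, stood at 1.51, 7.33 and 2.69, and *Fdx1*, the electron carrier of CYP11A1, at 17.3, 75.2 and 30.2. *Scarb1* and *Fdx1* thus had their highest level in set 2, as *Por* did. These differences were not particular to theca-like cells. In granulosa-like cells *Star* was at 0.0660, 4.34 and 7.20, *Scarb1* at 0.592, 3.03 and 2.01 and *Fdx1* at 2.71, 41.8 and 9.27. Luteal-like cells held *Star* at 3.38, 13.5 and 12.9, *Scarb1* at 9.85, 12.8 and 5.48 and *Fdx1* at 28.4, 86.1 and 26.9. *Cyp11a1* itself differed less, at 53.8, 44.7 and 49.2. *Hsd3b1*, which makes progestins from pregnenolone, was at 36.1, 21.0 and 10.4. *Scarb1*, *Fdx1*, *Cyp11a1* and *Hsd3b1* are theca markers of the gate, so the cells of each set were chosen partly on them. The part of the gate in their levels between sets was not tested. In set 3, theca-like cells held *Star* at a level near that of set 2. *Cyp17a1* was there at 0.190 and *Hsd3b1* at 0.497 (0.482 to 0.512) of set 2.

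Among receptors, *Lhcgr* was at 7.80, 5.16 and 0.785 in theca-like cells, and its ratio of set 3 to set 2 was 0.152 (0.139 to 0.166). It had the same order in luteal-like cells (8.83, 6.11 and 1.15) and in granulosa-like cells (1.24, 0.700 and 0.262). *Igf1r*, the IGF1 receptor, was at 0.807, 2.40 and 1.18 in theca-like cells. It was also highest in set 2 in granulosa-like cells (1.88, 3.02 and 1.33) and luteal-like cells (1.72, 3.17 and 1.57). *Prlr*, the prolactin receptor and one of the luteal markers of the gate, was at 6.84, 3.52 and 7.12 in theca-like cells. *Rxfp2*, the receptor of INSL3, had 0 UMIs in theca-like cells of all 3 sets.

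Of the transcription factors, *Nr5a1*, which activates many steroid genes, was at 1.53, 0.593 and 0.492, and *Gata4* at 1.42, 0.564 and 0.421. Both were at least 2-fold lower in set 2 than in set 1, at 0.388 (0.336 to 0.446) and 0.399 (0.338 to 0.468). Of the 5 transcription factors compared between these sets, 2 were lower and 2 higher, beside 9.28% and 8.26% of all genes. The higher ones were *Nr4a1* and *Nr5a2*, a granulosa marker of the gate, which went from 0.326 to 0.699. *Nr5a2* reached the minimum in set 2 alone of these and so could only come out higher. *Nr4a1*, an early response gene that binds sites like those of NR5A1, was at 1.12, 5.61 and 0.669 in theca-like cells. It was also highest in set 2 in granulosa-like cells (0.937, 5.75 and 0.672) and luteal-like cells (1.37, 4.22 and 0.493). Of the 3 redox genes, *Cyb5r1* was below the minimum level (0.328, 0.158 and 0.177), and the other two were not past 2-fold in either comparison, with *Cyb5b* at 0.944, 0.581 and 0.840 and *Cyb5r3* at 1.84, 1.72 and 1.91.

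Of the 9 genes of the steps after androstenedione, 3 of 5 compared were at least 2-fold lower in theca-like cells than in all other cells in set 1, 3 of 5 in set 2 and 1 of 3 in set 3 (9.32%, 11% and 4.23% of all genes), and none was higher (6.1%, 6.58% and 3.51%). These counts include *Hsd17b1*, a granulosa marker of the gate and the only lower gene in set 3, so that part of them was fixed by the gate. *Hsd17b1* in each set, *Cyp19a1* in sets 1 and 2 and *Akr1c14* in set 2 reached the minimum in the other cells alone. There they could only come out lower. *Cyp19a1*, the aromatase that makes estrogens, was at 0.0415, 0.143 and 0.00744 in theca-like cells and at 2.35, 5.18 and 0.0867 in granulosa-like cells. *Hsd17b1*, which reduces estrone and is a granulosa marker of the gate, was at 8.91, 5.88 and 1.25 in granulosa-like cells. *Akr1c14*, a 3-alpha-hydroxysteroid dehydrogenase that acts after 5-alpha-reduction, was at 0.932, 0.274 and 0.102 in theca-like cells. Its ratio of set 2 to set 1 was 0.294 (0.241 to 0.356), beside 0.543 for *Srd5a1*.

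**Figure D5:**
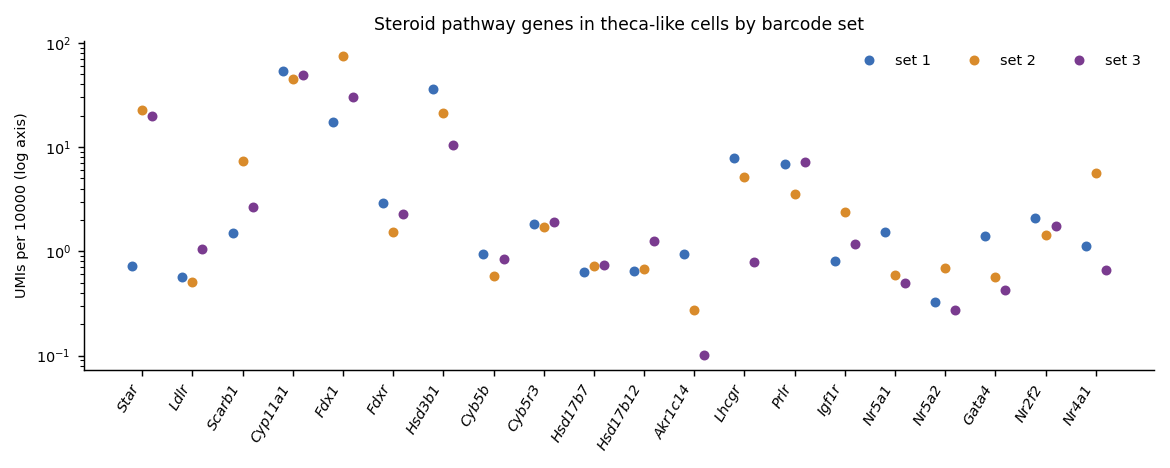
Mean level (UMIs per 10000, log axis) in theca-like cells of 20 steroid pathway genes that reached 0.5 in at least 1 set, with sets 1, 2 and 3 in blue, orange and purple. *Star* is at 0.720 in set 1 and at 22.4 and 19.8 in sets 2 and 3, and *Lhcgr* is at 0.785 in set 3 against 7.80 and 5.16.

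Finally, all 6442 genes that reached 0.5 UMIs per 10000 were compared with each of the 6 by Pearson's r of log2(level + 0.1) over 21 profiles, which are the 7 classes in 3 sets and share libraries. The genes most like *Cyp17a1* were *Fads1*, *Fads2*, *Prxl2a*, *Sct* and *Adh1*, with r from 0.899 to 0.925. *Fads1* and *Fads2* encode desaturases of long-chain fatty acids, and *Sct* encodes the hormone secretin. Those most like *Insl3* were *Plin1*, *Gsta1*, *Sct*, *Stk32a* and *Prxl2a* (0.932 to 0.957), where *Plin1* encodes a coat protein of lipid droplets. *Insl3* was above the added 0.1 only in theca-like cells of sets 1 and 2 (1.08 and 0.380). All r values of *Insl3* thus rest mainly on these profiles. *Cyb5a* was most like *Fst*, *Nr5a2*, *Mpped2*, *Ndufs4* and *Tnni3* (0.94 to 0.964), of which *Fst* and *Nr5a2* are granulosa markers of the gate. *Mgarp* was most like *Prlr*, *Sc5d*, *Tecr*, *Cyp11a1* and *Me1* (0.956 to 0.972), and *Sc5d* encodes an enzyme of cholesterol synthesis. *Srd5a1* was most like *Pank1*, *Defb19*, *Gsta2*, *Aldh1a1* and *Acsbg1* (0.887 to 0.930), and *Aldh1a1* is a theca marker of the gate. *Por* had the loosest matches, with *Got1*, *Plau*, *Serp1*, *Tmem248* and *Arf6* (0.771 to 0.860). Among the 6 themselves, r was 0.852 for *Cyp17a1* and *Insl3*, 0.811 for *Cyp17a1* and *Srd5a1* and 0.133 for *Cyp17a1* and *Cyb5a*.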

How the data were processed

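Whole mouse ovary was profiled with 10x Genomics scRNA-seq, and Cell Ranger, Seurat and the build mm10 are named in the submitters' processing notes without versions. The authors deposited 1 table of natural log values, ln(1 + x), with x the UMIs per 10000 in that cell. Whole UMIs were worked back from it for 100% of values (tolerance 0.01 UMI). Depth was a median of 6093, 6352 and 6524 UMIs per cell in sets 1, 2 and 3, with at least 500 per cell. The sets share 27, 46 and 39 cell barcodes in pairs.

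Cells were gated by class scores, the mean of marker ln levels scaled to the top 1% of cells, with at least 3 markers detected, a score of at least 0.15 and a margin of 0.05. Theca-like cells also needed fewer than 8 UMIs per 10000 over 6 granulosa genes and at least 2 over *Col1a2* and *Col3a1*. For cells that met these limits with a theca score of at least 0.15, the granulosa and luteal scores were dropped before the margin was applied. Theca-like cells thus did not have to exceed those scores. The thresholds of the gate were set after marker genes had been viewed, with the 6 genes out of view. The genes, lists and named-gene rule (the 6 genes, 33 pathway genes, and the 5 of highest r for each) were chosen with earlier results of these data known. Of the pathway list, 1 gene enters its counts but is not reported here by itself. No doublet caller was run, and cells past 2 gates were left out in an alternative. Because their granulosa and luteal scores had been dropped, theca-like cells could not be removed for these scores. That alternative is thus no check for mixtures of theca with granulosa or luteal cells.

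A level is the mean over cells of UMIs per 10000. Intervals are exact Poisson for levels and conditional binomial for ratios, computed on the effective UMI count that the weighting of cells leaves. Shares of cells used cells thinned to 3000 UMIs, without shallower cells. Folds of 2 or more were counted among genes at 0.5 or more in either group, with no p-value, since each set is 1 library. The calculation was tested on simulated Poisson counts with known fold changes, drawn from a mean profile of theca-like cells. Simulated cells did not differ beyond depth and counting error, so the intervals were not tested on uneven cells like those here. Positions are from GENCODE M21 and promoters from RefSeq (GRCm38.p6). Clusters came from scanpy 1.11.5 with python-igraph 0.11.9, and intervals from scipy 1.17.1 under python 3.11.15.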

Additional observations from a re-analysis of the deposited data

Results flagged for a closer look

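Results were singled out where a ratio between sets ran opposite ways in theca-like and granulosa-like cells, each with its counting interval on its own side of 1. With 1 library behind each set, these differences were not tested. *Cyp17a1* in set 2 over set 1 was 1.25 in theca-like cells and 0.789 (0.727 to 0.857) in granulosa-like cells. The theca-like value turned to 0.937 (0.922 to 0.952) without the collagen minimum. The granulosa-like value comes from the weak *Cyp17a1* signal found in every class, from which no expression by granulosa-like cells is read. *Cyb5a* in set 3 over set 2 was 1.72 in theca-like cells and 0.402 in granulosa-like cells. *Cyb5a* in set 2 over set 1 was 0.913 (0.852 to 0.977) in theca-like cells and 1.02 (1.00 to 1.03) in granulosa-like cells, and its theca-like value passed to 1.01 with a granulosa limit of 16 and to 1.11 without the collagen minimum.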

How the results depend on the processing

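The low *Cyp17a1* and *Insl3* levels of set 3 against set 2, and the low *Insl3* level of set 2 against set 1, kept their direction under all alternatives that gave a ratio. The values of *Cyp17a1* and *Insl3* outside the counting interval of the main value were as follows, and the cause was not tested. *Cyp17a1* in set 2 over set 1 was 1.19 with no gate margin, 1.30 with a wide margin, 1.15 with a theca gate without steroid genes, 1.31 without cells past 2 gates, 1.23 with classes from clusters, 1.29 in cells of at least 3000 UMIs, 1.30 with summed UMIs and 1.30 with the 50 most abundant genes out of the totals. *Cyp17a1* in set 3 over set 2 was, in the same order, 0.182, 0.198, 0.218, 0.307, 0.172, 0.195, 0.204 and 0.181, and 0.184 with *Star* in the theca gate. Alternatives added after the data were seen were a granulosa limit of 4 (1.35 and 0.201), a limit of 16 (1.16 and 0.172) and no collagen minimum, which turned the first ratio to 0.937 and gave 0.228 for the second. *Insl3* was at 0.266 and 0.345 without the collagen minimum. Other reversals were *Cyb5a* in set 2 over set 1 (1.01 with the limit of 16, 1.11 without collagen) and *Mgarp* in set 3 over set 2 (0.844 with clusters, 0.979 with summed UMIs). *Srd5a1* in set 3 over set 2 lay between 0.821 and 1.29. Of the other 4 genes, 21 further values moved without a reversal, among them *Cyb5a* in set 3 over set 2 (1.28 to 1.94) and *Por* in set 2 over set 1 (2.80 without collagen) and set 3 over set 2 (0.382 to 0.629).

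The counts of genes at 2-fold moved with the minimum level. In set 2 over set 1, 276 genes were higher and 310 lower, against 2798 and 6386 with no minimum and 177 and 107 with a minimum of 1. In set 3 over set 2, 542 were higher and 284 lower, against 5326 and 3458, and 247 and 171. Without the collagen minimum, 149 were lower in set 2 than in set 1 and 316 higher in set 3 than in set 2. No paired analysis was possible because the labels carry no shared replicate numbers and each time point is 1 library. *Insl3* and *Srd5a1* in set 3 rest on 99 and 211 UMIs in theca-like cells, which limits their ratios.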
